A study of Homo sapiens with 6 samples.

Results

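Interferon-stimulated genes were examined in MDA-MB-231 cells, a line grown from a human breast carcinoma of the basal-like kind, as 41 named genes taken by symbol from a table of 65198 gene rows. All 41 had a row, 28 averaged 1 FPKM or more and were tested, and 13 lay below that level. FPKM counts sequenced fragments relative to the length of the transcript and the size of the library. In shHOTAIR cells the long non-coding RNA HOTAIR was targeted by a short hairpin under tetracycline control, and in shCtrl cells a scrambled hairpin stood in its place. The groups share the parental line and the inducer, 1 µg/ml doxycycline for 96 h, and each gave 3 poly(A)-selected RNA-seq libraries from independent repeats. Each group is a single derivative of the line, so the p-values measure the spread between repeats of those derivatives, and a difference between the derivatives and an effect of the hairpin cannot be told apart. No untreated, uninduced or interferon-treated cells were analysed here.

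Interferons are secreted proteins that cells release when they sense viral or misplaced nucleic acid. Type I and type III interferons act through receptors on the cell surface and Janus kinases, and a complex that contains STAT2 and IRF9 then binds the interferon-stimulated response element in the promoters of many genes. Among the products of these genes are sensors of RNA, enzymes that degrade or block foreign RNA, membrane proteins that hinder viral entry or release, and regulators that strengthen or end the response. In tumour cells some of these genes are also expressed without an added stimulus.

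The interferon-stimulated response element was looked for in the promoters of the genes. RefSeq promoter sequences (GRCh38.p14, from 250 bases before the start of transcription to 50 after it) were held for 32 of the 41 genes. The core of the element was searched on both strands as GAAA, any 2 bases and GAAA, so that a match on the other strand reads TTTC, any 2 bases and TTTC. It was present in 22 of these 32 genes, and in 4.38% of all 27305 genes with such sequences. The palindromic gamma-activated sequence, TTCNNNGAA with N as any base, was present in 10 of the 32 and in 9.38% of all genes. The core was found in 3 of the 4 genes with a promoter that were higher in shHOTAIR, in 1 of the 3 that were lower, in 13 of 17 that did not pass the test and in 5 of 8 below the tested level. The 150 bases before the start are shown for 6 of the 8 genes that passed the test (IFIT2 and IFI35 are not shown), 4 higher and 2 lower, with whole matches to the core in capitals.
IFIT1, higher, chr10:89392473-89392622, plus strand: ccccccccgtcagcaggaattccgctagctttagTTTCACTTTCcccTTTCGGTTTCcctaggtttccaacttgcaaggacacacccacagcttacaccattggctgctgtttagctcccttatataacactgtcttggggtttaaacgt
IFI44, higher, chr1:78649639-78649788, plus strand: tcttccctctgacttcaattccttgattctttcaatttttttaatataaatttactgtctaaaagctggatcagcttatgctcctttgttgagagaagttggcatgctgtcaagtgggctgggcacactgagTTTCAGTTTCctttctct
HERC5, higher, chr4:88456969-88457118, plus strand: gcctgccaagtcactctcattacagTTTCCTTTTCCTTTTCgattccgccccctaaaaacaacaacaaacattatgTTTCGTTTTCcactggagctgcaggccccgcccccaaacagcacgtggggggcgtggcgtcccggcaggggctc
SAMD9L, higher, chr7:93148386-93148535, minus strand: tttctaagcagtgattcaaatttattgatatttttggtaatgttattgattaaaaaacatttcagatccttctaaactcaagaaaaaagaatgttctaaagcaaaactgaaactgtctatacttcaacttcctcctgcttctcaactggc
IFIT5, lower, chr10:89414418-89414567, plus strand: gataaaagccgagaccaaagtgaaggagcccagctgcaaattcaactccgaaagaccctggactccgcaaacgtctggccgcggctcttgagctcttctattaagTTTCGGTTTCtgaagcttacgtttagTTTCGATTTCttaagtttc
DDX58, lower, chr9:32526197-32526346, minus strand: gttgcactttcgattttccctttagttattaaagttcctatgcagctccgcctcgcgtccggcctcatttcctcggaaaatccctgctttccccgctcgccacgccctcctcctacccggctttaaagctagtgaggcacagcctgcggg
The IFIT1 sequence holds 2 matches, which begin 116 and 103 bases before the start, and that of HERC5 holds 3, of which 2 overlap. The matches in IFIT5 begin 45, 19 and 4 bases before the start, and the last of them runs past the start and is left in lower case. SAMD9L and DDX58 hold no match in their promoter windows, which says only that these letters are not there.

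Most of the interferon-stimulated genes did not pass the test, and those that did lay in both directions. Of the 28 tested genes 5 were higher in shHOTAIR (IFI44, SAMD9L, IFIT1, IFIT2 and HERC5) and 3 were lower (IFI35, DDX58 and IFIT5) at an adjusted p of 0.05 in limma. Changes are given as the difference of mean log2(FPKM + 1), shHOTAIR minus shCtrl. The 8 calls are 28.6% of the tested genes of the group, where 23.8% of all 15934 genes tested passed, 11.5% higher and 12.4% lower. The median log2 change of the 28 genes was 0.03, where that of all genes tested was -0.03, and 14 of the 28 lay above 0 and 14 below. The median absolute log2 change was 0.39 for the group and 0.24 for all genes tested. The shHOTAIR and shCtrl values did not overlap in 18 of the 28, 11 with shHOTAIR above and 7 with shHOTAIR below, where this held for 43% of all genes tested (19.9% above and 23.2% below). With protein-coding sums made equal in all libraries, 8 members were higher and 3 lower, and all genes called split 2221 higher and 1475 lower in place of 1829 and 1968. Of the 8 genes called, DDX58, IFI44 and SAMD9L kept their calls under every alternative in which they were tested, each library left out in turn included, and the other 5 lost theirs under at least 1. SAMD9L was not tested in the alternative with a minimum mean of 5 FPKM.

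Levels were low to moderate. The tested interferon-stimulated genes had a median of 6.63 FPKM over the 6 libraries, where protein-coding genes tested had 20.6 FPKM. The most abundant were the kinase gene EIF2AK2 (mean 93.4 FPKM), IFITM3 (92.2), ISG15 (62.0), STAT2 (55.2), IFITM2 (38.9) and IFI44 (33.2). EIF2AK2 stood above 85.6% of the tested protein-coding genes in level. At the other end, CMPK2, RSAD2, XAF1 and DHX58 did not exceed 0.193 FPKM in any library.

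**Figure D1:**
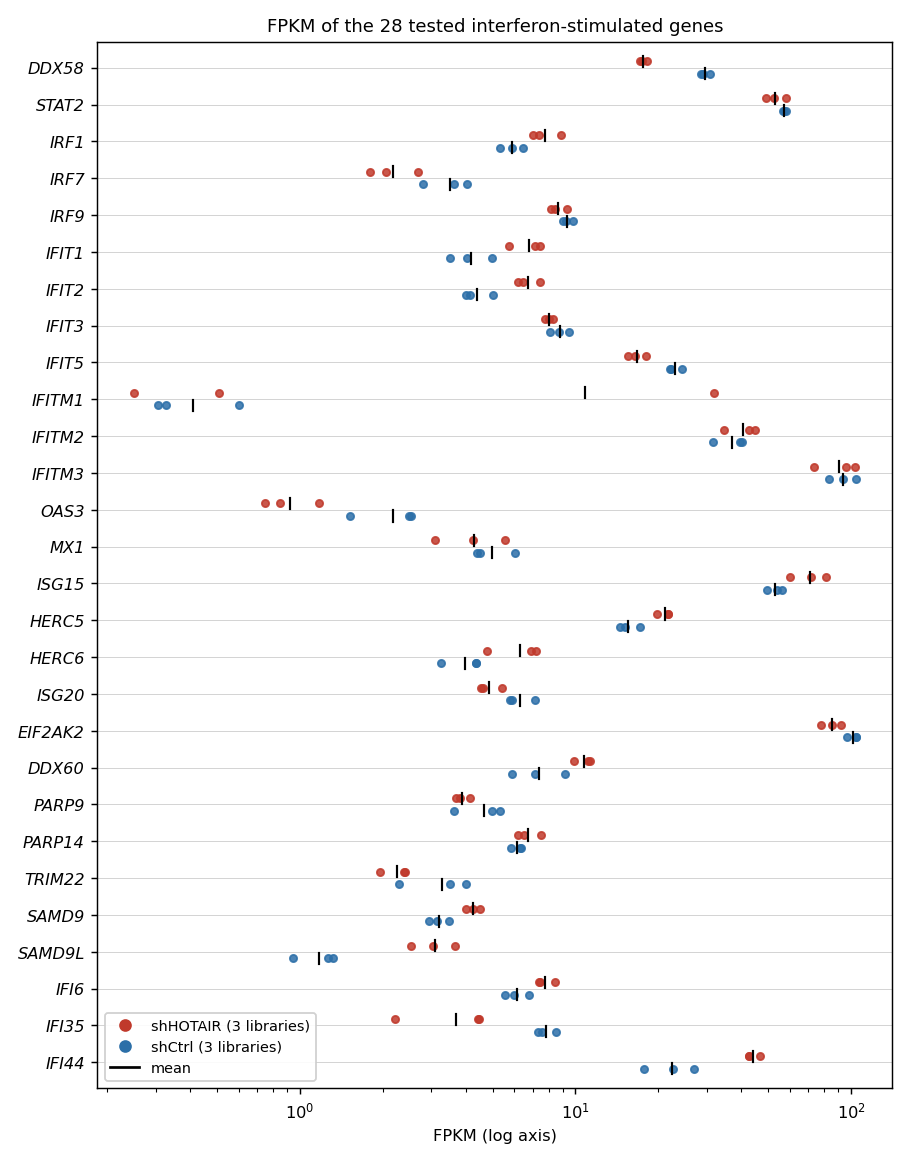
FPKM of the 28 tested interferon-stimulated genes on a log axis, each point 1 library and each black bar the mean of 3, shHOTAIR in red above shCtrl in blue for each gene. IFI44 and SAMD9L separate with shHOTAIR higher, DDX58 and IFI35 with shHOTAIR lower, and IFITM1 has 1 shHOTAIR library at 31.8 FPKM with the other 5 libraries at or below 0.6 FPKM.

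A few facts of the series bear on these values. The knockdown could not be checked, since HOTAIR was listed at 0, 0 and 0.0113 FPKM in the shHOTAIR libraries and at 0, 0.0128 and 0.0132 FPKM in the shCtrl libraries. The number of fragments per library is not known, but the spacing of low values was used to estimate what 1 fragment was worth in FPKM, with shCtrl 1 set to 1. The commonest ratio was 0.595 to 0.717 in shHOTAIR and 0.812 to 1 in shCtrl, a smaller value standing for a deeper library. It is an estimate: in the 5 libraries set against shCtrl 1, 2184 to 2352 low genes could be used, and 478 to 603 of them had that ratio. Correlations of log2 values over 11587 protein-coding genes were 0.990 to 0.994 within groups and 0.966 to 0.973 between them. Vimentin, CD44, EGFR, AXL and the keratins KRT8 and KRT18, which mark this cell line, lay between 70.4 and 977 FPKM in every library. But of the 9 such markers 5 were higher and 2 lower in shHOTAIR, where 11.5% and 12.4% of all genes tested were. Vimentin averaged 393 FPKM in shHOTAIR and 948 FPKM in shCtrl (limma adjusted p = 0.000616), and EGFR 157 FPKM in shHOTAIR and 76.7 FPKM in shCtrl (0.0011). Their log2 changes were -1.27 for vimentin and 1.02 for EGFR, where the nearest 50 coding genes had medians of -0.75 and 0.34. Of the 5 markers low or absent in this line, the oestrogen receptor gene ESR1, E-cadherin (CDH1) and EPCAM stayed below 0.12 FPKM and PGR was listed at 0, while ERBB3 averaged 7.17 FPKM in shHOTAIR and 12.3 FPKM in shCtrl (adjusted p = 0.0659). The 10 leukocyte markers summed to 16.4 to 19.9 FPKM in shHOTAIR and 21.7 to 22.8 FPKM in shCtrl, nearly all of it CD68, and the T cell gene CD3E and the B cell gene MS4A1 did not exceed 0.0644 FPKM. Summed fibroblast markers were 3.62 to 4.07 FPKM in shHOTAIR and 1.44 to 2.30 FPKM in shCtrl, mostly COL1A1. Endothelial markers summed to 2.23 to 3.0 FPKM in shHOTAIR and 1.57 to 1.97 FPKM in shCtrl, and the part of these cell type markers in the results was not tested. In bulk RNA, a change in the share of cells that express a gene and a change in its RNA per cell cannot be told apart.

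Among the cytoplasmic RNA sensors, DDX58, which encodes RIG-I, a helicase that recognises viral RNA with a free triphosphate end, was lower in shHOTAIR. DDX58 (ENSG00000107201, chromosome 9, 32455705 to 32526324 on GRCh38, minus strand) had 18.2, 17.2 and 17.5 FPKM in shHOTAIR, against 29.01, 30.8 and 28.6 FPKM in shCtrl. The groups stood well apart and the repeats of each were close together. Its mean was 17.6 ± 0.493 FPKM in shHOTAIR and 29.5 ± 1.2 FPKM in shCtrl (SD, n = 3 each), with a log2 change of -0.71 (SE 0.0532, limma adjusted p = 0.00116). It had the smallest p of the 28 tested genes, and without 1 library the adjusted p was 0.00553 to 0.00926. The related sensor genes were scarce. IFIH1, the gene of the long-RNA sensor MDA5, lay at 0.557 to 0.687 FPKM in shHOTAIR and 0.940 to 1.07 FPKM in shCtrl, and DHX58, the gene of the regulator LGP2, at 0.0802 to 0.148 FPKM in shHOTAIR and 0.0507 to 0.185 FPKM in shCtrl.

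None of the 4 transcription factor genes passed the test. STAT2, a signal transducer of type I and type III interferons, had 58.2, 52.4 and 49.0 FPKM in shHOTAIR, against 58.2, 56.9 and 56.6 FPKM in shCtrl. IRF9, its DNA-binding partner, averaged 8.64 ± 0.615 FPKM in shHOTAIR and 9.34 ± 0.414 FPKM in shCtrl (SD, n = 3 each). The intervals of the log2 change were -0.29 to 0.07 for STAT2 and -0.28 to 0.08 for IRF9 (95%, limma), and neither excludes 0. IRF1, an activator that also responds to interferon gamma, had 7.36, 8.88 and 7.04 FPKM in shHOTAIR, against 5.30, 5.91 and 6.43 FPKM in shCtrl. IRF7, which drives interferon alpha genes, had 1.79, 2.06 and 2.68 FPKM in shHOTAIR, against 4.06, 3.64 and 2.79 FPKM in shCtrl. Both genes had groups apart, IRF1 with shHOTAIR above and IRF7 with shHOTAIR below, and both missed the threshold (limma adjusted p = 0.0754 for IRF1 and 0.0849 for IRF7).

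The IFIT genes encode RNA-binding proteins that block translation of foreign transcripts, and the 4 of them lie side by side on chromosome 10. They divided, with IFIT1 and IFIT2 higher in shHOTAIR, IFIT5 lower and IFIT3 not past the threshold. IFIT1 (ENSG00000185745, 89392546 to 89406486 on GRCh38, plus strand) had 5.75, 7.13 and 7.44 FPKM in shHOTAIR, against 4.96, 3.49 and 4.05 FPKM in shCtrl. IFIT2 (ENSG00000119922, 89283694 to 89309276, plus strand) had 6.21, 6.47 and 7.46 FPKM in shHOTAIR, against 5.03, 3.997 and 4.13 FPKM in shCtrl. Every shHOTAIR library lay above every shCtrl library for both genes, with log2 changes of 0.59 (SE 0.143, limma adjusted p = 0.0345) for IFIT1 and 0.52 (SE 0.110, adjusted p = 0.0230) for IFIT2. IFIT5 (ENSG00000152778, 89414586 to 89421001, plus strand), which begins 8.1 kb beyond the end of IFIT1, had 18.1, 16.4 and 15.5 FPKM in shHOTAIR, against 22.1, 24.3 and 22.2 FPKM in shCtrl. Its groups were apart in the other direction, with a log2 change of -0.44 (SE 0.0755, limma adjusted p = 0.0121). IFIT3, whose product binds and stabilises that of IFIT1, averaged 8.03 ± 0.281 FPKM in shHOTAIR and 8.77 ± 0.672 FPKM in shCtrl (SD, n = 3 each; adjusted p = 0.323). The IFIT1 and IFIT2 calls were lost without shCtrl 2, shCtrl 3, shHOTAIR 2 or shHOTAIR 3, with adjusted p up to 0.117 and 0.0837, and with no filter on low values (0.0783 and 0.0549), and that of IFIT1 also with a minimum mean of 5 FPKM (0.053). The IFIT5 call was lost without shHOTAIR 2 (adjusted p = 0.0526).

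Most genes around the IFIT cluster were lower. Of the 15 other protein-coding genes tested within 2 Mb of the start of IFIT1, all 15 had a log2 change below 0, with a median of -0.47, and 10 were lower at the threshold and 0 higher. Of those 10, ACTA2 (0.815 FPKM in shHOTAIR and 2.11 FPKM in shCtrl) and FAS (0.884 FPKM in shHOTAIR and 2.74 FPKM in shCtrl) reached the tested level through shCtrl alone. On chromosome 10 as a whole, 298 of 443 tested protein-coding genes were lower in shHOTAIR and 12 higher, with a median log2 change of -0.52. Of all genes tested, 12.4% were lower and 11.5% higher. When each gene was centred on its 50 nearest tested protein-coding neighbours in every library, the log2 changes were 1.03 for IFIT1 (limma adjusted p = 0.0151), 0.95 for IFIT2 (0.00836), 0.32 for IFIT3 (0.0660) and -0.01 for IFIT5 (0.925). IFIT1 and IFIT2 thus lay further above their surroundings than above 0, and the call of IFIT5 was lost. The annotated span of LIPA, a lysosomal lipase gene on the opposite strand, overlaps IFIT1, IFIT2 and IFIT3. LIPA had 39.0, 40.9 and 35.6 FPKM in shHOTAIR, against 41.9, 44.2 and 45.6 FPKM in shCtrl, with shHOTAIR below, and did not pass (limma adjusted p = 0.112). IFIT2 also overlaps a non-coding gene of its own strand, AL353751.1, which had 9.89, 14.0 and 18.9 FPKM in shHOTAIR, against 4.77, 2.26 and 2.92 FPKM in shCtrl. The sources used here do not say if strand was used in counting, and how reads were divided between these overlapping genes was not tested.

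**Figure D2:**
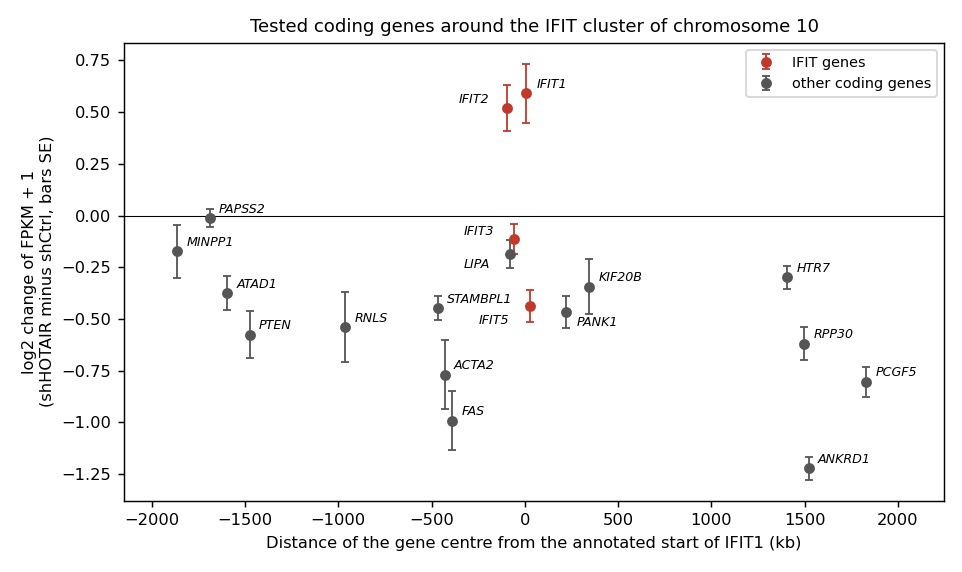
Log2 change (shHOTAIR minus shCtrl, bars SE) of the tested protein-coding genes within 2 Mb of the start of IFIT1, against the distance of each gene's centre in kb, the 4 IFIT genes in red and 15 others in grey. IFIT1 and IFIT2 lie at 0.59 and 0.52 while all 15 others lie below 0.

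The IFITM genes encode small membrane proteins that hinder the fusion of viruses with cells, and none passed the test. IFITM3 had 73.4, 95.6 and 103 FPKM in shHOTAIR, against 104.5, 83.2 and 93.3 FPKM in shCtrl, and IFITM2 averaged 40.7 ± 5.32 FPKM in shHOTAIR and 37.1 ± 4.72 FPKM in shCtrl (SD, n = 3 each). Their groups overlapped, and the 95% intervals of the log2 change were -0.43 to 0.32 for IFITM3 and -0.21 to 0.47 for IFITM2. IFITM1 had 0.249, 31.8 and 0.508 FPKM in shHOTAIR, against 0.600, 0.305 and 0.326 FPKM in shCtrl. It reached the tested level through shHOTAIR 2 alone, and without that library its log2 change of 1.49 became -0.03. Among tested protein-coding genes IFITM1 was the 1 gene in which shHOTAIR 2 stood at least 10-fold above each of the other 5 libraries, where such genes numbered 0 to 2 for the other libraries. The annotated spans of IFITM1 and IFITM2 overlap on the same strand and the 3 genes are close paralogs, so their reads may be shared. IFITM2 in shHOTAIR 2 was 44.8 FPKM, the highest of the 6 libraries, and the part of read sharing in the IFITM1 value was not tested.

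The OAS genes OAS1, OAS2 and OAS3 encode enzymes that sense double-stranded RNA and make oligoadenylates, which switch on the ribonuclease RNase L. They lie in a row on chromosome 12, and OASL, of the same family, lies farther along. OAS3 had 0.749, 1.18 and 0.844 FPKM in shHOTAIR, against 2.54, 1.52 and 2.49 FPKM in shCtrl. It reached the tested level through shCtrl, its groups were apart, and its log2 change of -0.72 narrowly missed the threshold (limma adjusted p = 0.0507, and 0.0256 to 0.154 over its alternatives). OAS2, below the tested level, had 0.160, 0.205 and 0.0378 FPKM in shHOTAIR, against 0.833, 0.748 and 0.931 FPKM in shCtrl. In a separate fit of the 36141 genes detected in at least 1 library, where 8.89% of genes passed, OAS2 was lower in shHOTAIR (log2 change -0.70, limma adjusted p = 0.0107). The mean of OAS2 in shHOTAIR was 0.160 times that in shCtrl, a larger ratio than the log2 change shows, because the added 1 shrinks changes below 1 FPKM. The OAS2 call held without any 1 library (adjusted p 0.0337 to 0.0435) and was lost with an added 0.01 (0.0582). OAS1 at up to 0.487 FPKM and OASL at up to 1.15 FPKM had overlapping groups.

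Of the MX genes, which encode dynamin-like GTPases that trap viral particles, MX1 had 3.08, 4.25 and 5.56 FPKM in shHOTAIR, against 6.04, 4.51 and 4.38 FPKM in shCtrl. MX1, a widely used indicator of type I interferon signalling, did not pass (log2 change -0.19, 95% interval -0.70 to 0.32, limma adjusted p = 0.546). Its neighbours on chromosome 21 had a median of 0.40, and centred on them its log2 change was -0.58 (adjusted p = 0.107). MX2 stayed between 0.110 and 0.471 FPKM over all 6 libraries.

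The ISG15 system attaches the ubiquitin-like protein ISG15 to newly made proteins. HERC5, its main ligase in human cells, was higher in shHOTAIR, ISG15 itself missed the threshold, and USP18, the protease that removes ISG15 and restrains the interferon receptor, was scarce and lower. ISG15 (ENSG00000187608, chromosome 1) had 60.1, 71.7 and 80.8 FPKM in shHOTAIR, against 53.8, 49.6 and 56.1 FPKM in shCtrl. Its groups were apart, its log2 change was 0.40 (SE 0.118) and its limma adjusted p was 0.0622. ISG15 passed with median-of-ratios scaling (0.0453) and with equal protein-coding sums (0.0254), while centred on its neighbours, whose median was 0.27, its log2 change was 0.13 (adjusted p = 0.425). HERC5 (ENSG00000138646, chromosome 4, 88457117 to 88506163, plus strand) had 21.7, 19.8 and 21.7 FPKM in shHOTAIR, against 15.1, 17.1 and 14.4 FPKM in shCtrl, a log2 change of 0.42 (SE 0.0801, limma adjusted p = 0.0167). The neighbouring HERC6, a gene of the same family, had 7.16, 6.90 and 4.76 FPKM in shHOTAIR, against 3.25, 4.36 and 4.36 FPKM in shCtrl, and did not pass (log2 change 0.54, limma adjusted p = 0.0809, and 0.16 when centred on its neighbours). The median log2 change of the 50 coding genes nearest to HERC5 was 0.37, and centred on them HERC5 had a log2 change of 0.05 (adjusted p = 0.728). Removing shCtrl 1, shCtrl 3, shHOTAIR 1 or shHOTAIR 3 also ended its call, with adjusted p up to 0.0653.

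USP18 had 0.0723, 0.0324 and 0.0390 FPKM in shHOTAIR, against 0.327, 0.221 and 0.350 FPKM in shCtrl. In the fit of all detected genes it was lower (log2 change -0.31, limma adjusted p = 0.0201), with a mean in shHOTAIR of 0.160 times that in shCtrl. After division by this estimate of the worth of 1 fragment, the shHOTAIR values stood at 2, 1 and 1 times the smallest of the 6, and the shCtrl values at 6, 5 and 7.67 times. The 7.67 is not a whole multiple, so the smallest value is not shown to be 1 fragment. The number of fragments behind the comparison is not known. Removal of each library other than shCtrl 2 ended the call (adjusted p up to 0.0796). In the wider pathway, UBE2L6, the conjugating enzyme of ISG15, had 7.01, 8.63 and 8.40 FPKM in shHOTAIR, against 19.5, 17.4 and 17.5 FPKM in shCtrl, and fell by 1.09 on the log2 scale (limma adjusted p = 0.00167).

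The nucleotide and RNA effectors gave no call. EIF2AK2, the gene of the kinase PKR, which halts translation when it binds double-stranded RNA, had 92.1, 77.6 and 85.3 FPKM in shHOTAIR, against 104.5, 104.3 and 96.4 FPKM in shCtrl. ISG20, an exonuclease gene, averaged 4.85 ± 0.478 FPKM in shHOTAIR and 6.27 ± 0.763 FPKM in shCtrl (SD, n = 3 each). DDX60, a helicase gene on chromosome 4, averaged 10.8 ± 0.759 FPKM in shHOTAIR and 7.397 ± 1.67 FPKM in shCtrl. In all 3 the groups were apart, EIF2AK2 and ISG20 with shHOTAIR below and DDX60 with shHOTAIR above, and the limma adjusted p were 0.0650 for EIF2AK2, 0.0947 for ISG20 and 0.0678 for DDX60. ISG20 stood against its surroundings on chromosome 15, where the median log2 change of its neighbours was 0.39, and centred on them its log2 change was -0.70 (adjusted p = 0.0108). The neighbours of DDX60 had a median of 0.29, and centring reduced its log2 change of 0.50 to 0.21 (adjusted p = 0.422). RSAD2, the gene of the antiviral enzyme viperin, and CMPK2, the adjacent nucleotide kinase gene with an overlapping span, were hardly detected. CMPK2 was listed at 0 in all 3 shHOTAIR libraries and at 0.191, 0.0771 and 0.0328 FPKM in shCtrl. RSAD2 lay at 0 to 0.0420 FPKM in shHOTAIR and 0.0599 to 0.174 FPKM in shCtrl.

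PARP9 and PARP14, which encode ADP-ribosylation proteins of the interferon response, did not pass. PARP9 averaged 3.88 ± 0.243 FPKM in shHOTAIR and 4.64 ± 0.894 FPKM in shCtrl (SD, n = 3 each; limma adjusted p = 0.359). PARP14 averaged 6.74 ± 0.689 FPKM in shHOTAIR and 6.14 ± 0.281 FPKM in shCtrl (adjusted p = 0.404). DTX3L, the ubiquitin ligase that forms a complex with PARP9 and whose span overlaps it on the opposite strand, had 3.93, 3.36 and 3.63 FPKM in shHOTAIR, against 6.77, 5.75 and 6.10 FPKM in shCtrl. It was lower in shHOTAIR (log2 change -0.63, limma adjusted p = 0.00677), whereas the groups of PARP9 overlapped.

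SAMD9 and SAMD9L are neighbouring genes of chromosome 7 whose products restrain growth and the replication of poxviruses, and SAMD9L was higher in shHOTAIR. SAMD9L (ENSG00000177409, 93130055 to 93148369, minus strand) had 3.05, 3.67 and 2.53 FPKM in shHOTAIR, against 1.32, 1.27 and 0.941 FPKM in shCtrl. Its groups were apart, and its mean in shHOTAIR was 2.62 times that in shCtrl (log2 change 0.90, SE 0.158, limma adjusted p = 0.0126). The call held without any 1 library (adjusted p 0.0197 to 0.0370) and with centring on its neighbours (log2 change 0.92, adjusted p = 0.0163). SAMD9 had 4.51, 3.999 and 4.23 FPKM in shHOTAIR, against 3.15, 3.48 and 2.95 FPKM in shCtrl, also apart, with a log2 change of 0.33 that just missed (limma adjusted p = 0.0538, and 0.0342 to 0.155 over its alternatives). TRIM22, a ubiquitin ligase gene of the TRIM family, averaged 2.25 ± 0.255 FPKM in shHOTAIR and 3.27 ± 0.887 FPKM in shCtrl (SD, n = 3 each; limma adjusted p = 0.203), and passed only without shCtrl 3 (0.0494).

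BST2, whose product tetherin holds budding viruses at the cell surface, had 0.0569, 0.244 and 0 FPKM in shHOTAIR, against 0.321, 0.333 and 0.230 FPKM in shCtrl, with overlapping groups. XAF1, a pro-apoptotic gene, was listed at 0, 0 and 0.00953 FPKM in shHOTAIR, against 0.193, 0.0761 and 0.157 FPKM in shCtrl. The groups of XAF1 were apart, and in the fit of all detected genes its limma adjusted p was 0.0567, with 0.0207 to 0.700 over its alternatives.

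The IFI genes held the largest rise and the largest fall on the log2(FPKM + 1) scale among the 8 genes called. As a ratio of mean FPKM, the rise of SAMD9L was larger than that of IFI44. IFI44, a gene of a cytoplasmic protein induced by type I interferon (ENSG00000137965, chromosome 1, 78649796 to 78664078, plus strand), had 42.7, 46.6 and 42.8 FPKM in shHOTAIR, against 26.8, 17.7 and 22.5 FPKM in shCtrl. All shHOTAIR values lay above all shCtrl values. The mean was 44.0 ± 2.21 FPKM in shHOTAIR and 22.4 ± 4.59 FPKM in shCtrl (SD, n = 3 each), a log2 change of 0.97 (SE 0.150, limma adjusted p = 0.00875). The call held without any 1 library (adjusted p 0.0136 to 0.0446) and with centring on its neighbours (log2 change 0.75, adjusted p = 0.0339). IFI44L, the paralog that ends 3.7 kb before IFI44 begins, had 0.733, 0.564 and 0.305 FPKM in shHOTAIR, against 0.685, 0.227 and 0.721 FPKM in shCtrl. Its mean level over the libraries was 0.539 FPKM, where that of IFI44 was 33.2 FPKM. The groups of IFI44L overlapped.

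IFI35 (ENSG00000068079, chromosome 17, 43006725 to 43014456, plus strand), a leucine zipper protein gene, had 2.21, 4.46 and 4.41 FPKM in shHOTAIR, against 7.30, 7.59 and 8.52 FPKM in shCtrl. Its groups were apart and its mean in shHOTAIR was 0.474 times that in shCtrl (log2 change -0.95, SE 0.227, limma adjusted p = 0.0336). The call ended when each library other than shHOTAIR 1 was removed (adjusted p up to 0.115) and with no filter on low values (0.0756). NMI, the binding partner of IFI35, averaged 4.88 FPKM in shHOTAIR and 7.54 FPKM in shCtrl and was lower too (log2 change -0.54, limma adjusted p = 0.00692). IFI6, a mitochondrial membrane protein gene of chromosome 1, had 7.47, 7.36 and 8.42 FPKM in shHOTAIR, against 6.01, 5.56 and 6.79 FPKM in shCtrl, apart and short of the threshold (log2 change 0.30, limma adjusted p = 0.0710). IFI6 passed with equal protein-coding sums (log2 change 0.36, limma adjusted p = 0.0294). The median log2 change of the coding genes nearest to IFI6 was 0.24, and centred on them its log2 change was 0.06 (adjusted p = 0.707). IFI27 had 0.465, 1.30 and 0.506 FPKM in shHOTAIR, against 1.34, 0.187 and 0.330 FPKM in shCtrl, a spread within each group that covers the difference between them.

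**Figure D3:**
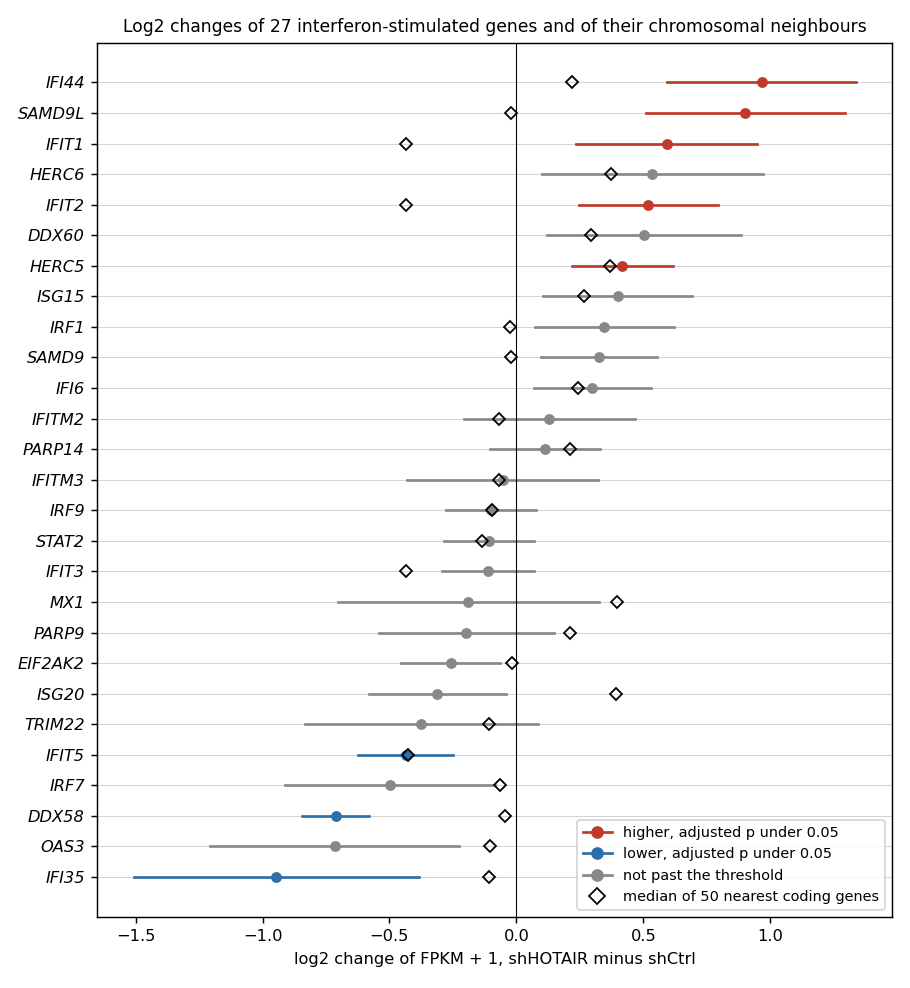
Log2 change (shHOTAIR minus shCtrl, with 95% intervals from limma) of 27 tested interferon-stimulated genes, ordered by change, with open diamonds for the median of the 50 nearest coding genes. IFITM1 is left out because 1 library sets its value. The diamonds lie beside the points of HERC5, IFIT5 and IFI6, on the other side of 0 from IFIT1 and IFIT2, and near 0 for SAMD9L, DDX58 and IFI35.

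Among the 13 genes below the tested level the calls were all lower in shHOTAIR. In the fit of all detected genes, 2 of them (OAS2 and USP18) were lower in shHOTAIR and 0 higher, where 2.42% of the 20207 genes below the tested level passed, 0.911% lower and 1.51% higher. Their shHOTAIR values lay wholly below their shCtrl values in 6 of the 13 (IFIH1, OAS2, USP18, CMPK2, RSAD2 and XAF1) and wholly above in 0. This held for 6.1% and 7.49% of the 20207 genes, and for 23.2% and 19.9% of the genes tested. The 20207 include any gene above 0 in at least 1 library. A gene listed at 0 in a library of each group cannot have groups apart, which lowers the shares of the 20207. OAS1, OASL, DHX58, MX2, BST2, IFI27 and IFI44L overlapped. Values divided by the estimated worth of 1 fragment were set against the smallest above 0 of each gene. RSAD2 stood at 1.5, 1 and 0 times it in shHOTAIR and at 1.75, 1.75 and 4.93 times in shCtrl. CMPK2 stood at 0 in every shHOTAIR library and at 4.88, 2.43 and 1 times in shCtrl. Neither gene stood at whole multiples throughout, so those smallest values are not shown to be 1 fragment. The number of fragments behind both separations is not known.

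**Figure D4:**
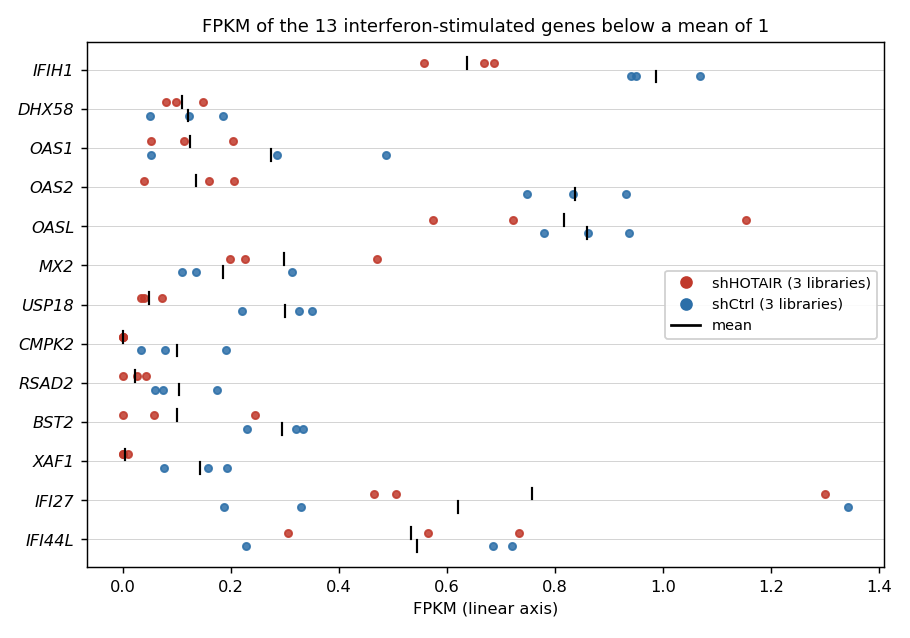
FPKM of the 13 interferon-stimulated genes with a mean below 1 on a linear axis, each point 1 library and each black bar the mean of 3, shHOTAIR in red above shCtrl in blue. OAS2 separates most clearly, at 0.0378 to 0.205 FPKM in shHOTAIR and 0.748 to 0.931 FPKM in shCtrl.

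The other parts of the pathway were read from 5 lists, to be set against 23.8% of all genes tested. Of 21 interferon genes, 20 were listed at 0 in all 6 libraries, interferon beta (IFNB1) and the 3 lambda interferons among them, and the remaining gene, IFNK, did not exceed 0.0373 FPKM. A listing at 0 does not show absence, and secreted interferon protein was not measured. Of 8 tested receptor and kinase genes 2 rose and 0 fell. IFNAR1, a chain of the type I interferon receptor, had 20.8, 15.7 and 20.2 FPKM in shHOTAIR, against 11.3, 13.02 and 10.1 FPKM in shCtrl (log2 change 0.67, limma adjusted p = 0.0220). IFNGR2, a chain of the interferon gamma receptor next to it on chromosome 21, rose by a log2 change of 0.46 (adjusted p = 0.00786), and the median of the neighbours of both was 0.29. The kinase genes JAK1 and TYK2 lay between 71.9 and 121 FPKM in all libraries and did not pass.

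Genes that restrain the signal moved both ways, 3 higher and 2 lower of 11 tested. SOCS2 (5.47 ± 0.63 FPKM in shHOTAIR and 3.24 ± 0.0498 FPKM in shCtrl, SD, n = 3 each) and the phosphatase gene PTPN1 (log2 change 0.47) were higher, as was SOCS3. IRF2, a factor that competes with activators at interferon-responsive promoters, had 10.6, 13.5 and 9.09 FPKM in shHOTAIR, against 19.3, 22.9 and 26.5 FPKM in shCtrl. It fell by 0.99 on the log2 scale (limma adjusted p = 0.0120), with its neighbours on chromosome 4 at a median of -0.29. PIAS2 fell by 0.56 (adjusted p = 0.00194), with its neighbours on chromosome 18 at a median of -0.41. Among 15 tested genes of a list on innate sensing, mainly of nucleic acid, 3 were higher and 4 lower. ZCCHC3, a co-sensor (log2 change 0.62), and TLR4 (0.65), whose product recognises bacterial lipopolysaccharide and not nucleic acid, rose, and the adaptor genes TICAM1 (-0.53) and TRAF6 (-0.50) fell. The neighbours of ZCCHC3 on chromosome 20 had a median of 0.38, those of TLR4 0.02, of TICAM1 -0.13 and of TRAF6 -0.06.

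A further 51 interferon-stimulated genes, listed from general knowledge, held more genes lower than higher. Of the 39 tested, 14 were lower and 4 higher (background 12.4% and 11.5%), with a median log2 change of -0.22. The groups were apart with shHOTAIR below in 21 and above in 7, where this held for 23.2% and 19.9% of all genes tested. GBP1, a guanylate-binding GTPase gene, had the smallest p, with 14.1, 14.2 and 13.7 FPKM in shHOTAIR, against 5.59, 4.80 and 4.84 FPKM in shCtrl (log2 change 1.31, limma adjusted p = 0.000593). Its paralog GBP3 had almost the same shHOTAIR values, 14.1, 14.3 and 13.7 FPKM, and 5.64, 8.27 and 6.0 FPKM in shCtrl. Close copies of this family can share reads, and the part of read sharing in these values was not tested. LAP3, an aminopeptidase gene, fell to 37.6 FPKM in shHOTAIR, against 60.5 FPKM in shCtrl (adjusted p = 0.00127), in a region of chromosome 4 where the neighbours had a median of -0.47. The ADP-ribosyltransferase gene PARP12 averaged 17.5 FPKM in shHOTAIR and 26.7 FPKM in shCtrl (log2 change -0.58, adjusted p = 0.00223). The chemokine gene CXCL10, a classical interferon target, stayed low in all libraries, at 0.0239 to 0.283 FPKM in shHOTAIR and 0.503 to 0.934 FPKM in shCtrl.

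**Figure D5:**
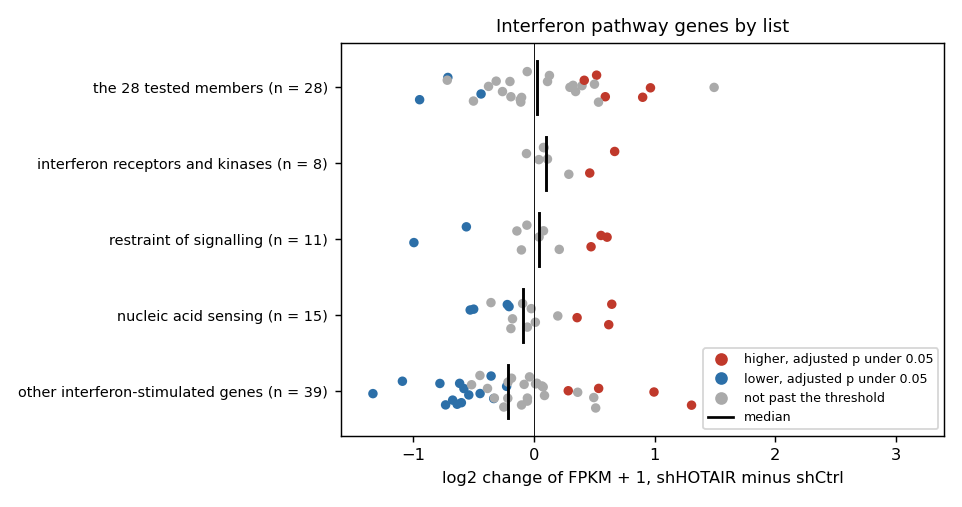
Log2 change (shHOTAIR minus shCtrl) of the tested genes of the group and of 4 pathway lists, each point 1 gene, red higher and blue lower at an adjusted p under 0.05 in limma, black bars the medians. The medians are 0.03 for the 28 tested members and -0.22 for the 39 other interferon-stimulated genes, and each row holds points on both sides of 0.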

How the data were processed

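RNA was sequenced from 3 shHOTAIR and 3 shCtrl cultures. The submitters' processing notes list the build GRCh38, DESeq and TopHat2 2.0.13, with no role or order. The authors deposited FPKM values per Ensembl gene, while their program and strand setting are not given in sources used here. Symbols, positions and gene types came from GENCODE 29, which matched 56807 of 65198 rows. Values were analysed as log2(FPKM + 1) without rescaling, for the 15934 genes averaging 1 FPKM or more. The groups were compared in limma 3.58.1 (R 4.3.3) with an intensity trend and Benjamini-Hochberg adjustment over all genes tested, and the fit was tested on simulated data. Genes below that level were read from a second fit of 36141 genes above 0 in any library. Promoter sequences are RefSeq's, and RIGI is DDX58. No pair of libraries had identical deposited values above 0 in more than 0.00628% of the genes tested. The number of fragments is unknown, so no counting interval is given. Regional centring subtracted, per library, the median deviation of the 50 nearest tested protein-coding genes. The other alternatives were an added 0.1 or 0.01, no filter, a minimum mean of 5 FPKM, median-of-ratios, equal-sum and quantile scaling, limma without a trend or with robust eBayes, a replicate block and each library left out. All 41 members were described, and up to 4 genes per pathway list with the smallest p among those past the threshold. SOCS3, DTX3L, NMI, CXCL10, GBP3, JAK1, TYK2, LIPA, AL353751.1 and non-member genes given as neighbours or markers were added after their values were seen. The members and lists were chosen with earlier results of these data known. Same-numbered libraries did not deviate together, and Python 3.11.15 drew the plots.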

Additional observations from a re-analysis of the deposited data

How the results depend on the processing

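Over 664 values of single interferon-stimulated genes under the alternatives, 642 kept their direction, and none of the 22 that did not passed the threshold. With regional centring the log2 change was 0.0285 for STAT2, 0.321 for IFIT3, 0.0157 for IFITM3, -0.0965 for PARP14, 0.136 for DHX58 and -0.267 for MX2. With equal protein-coding sums it was 0.0174 for IFITM3 and 0.0263 for IFI44L, and for IFI44L it was 0.0298 with an added 0.1, 0.0532 with an added 0.01 and 0.00741 with median-of-ratios scaling. Without 1 library the range was -0.0328 to 2.33 for IFITM1, -0.153 to 0.0891 for IFITM3, -0.0574 to 0.0293 for DHX58, -0.174 to 0.0515 for OASL, -0.0578 to 0.452 for IFI27 and -0.160 to 0.109 for IFI44L. The cause of these changes was not tested.

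The 8 called members (5 higher, 3 lower) became 5 (3 higher) with no filter on low values, 3 higher and 3 lower with a minimum mean of 5 FPKM, and 8 higher and 3 lower with equal protein-coding sums, where all genes called split 2221 higher and 1475 lower in place of 1829 and 1968. Without 1 library the members called numbered 4 to 9, with 2 to 5 higher and 1 to 4 lower, and all genes called 2470 to 3159. The lowest member count was that without shHOTAIR 2 (4), and it was 5 without shCtrl 3 and without shHOTAIR 3. Calls were gained by OAS3, DDX60 and XAF1 without shCtrl 2, by ISG15 and EIF2AK2 without shHOTAIR 1, by HERC6 without shHOTAIR 3 and by TRIM22 without shCtrl 3. Regional centring gave 2393 genes called and 8 members, of which 6 were among the 8 above. With a replicate block 1740 genes and 3 members were called, 2 higher and 1 lower (DDX58, IFI44 and SAMD9L), and OAS2 and USP18 lost their calls (limma adjusted p = 0.103 and 0.0959). The correlation of the deviations of same-numbered libraries was -0.0221, 0.00696 and -0.0307, so the numbers were not taken to pair the cultures. With 3 libraries per group and no known fragment numbers, changes of the genes below 1 FPKM are the least certain.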
